A study of Homo sapiens with 4 samples.

Results

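Androgen-responsive and prostate lineage genes were followed through 8 members, TMPRSS2, FOXA1, KLK2, KLK3, FOLH1, STEAP1, STEAP2 and SPOP, chosen by name as androgen targets, their partners and surface antigens of prostate cells. They are 8 of the 25121 genes that could be named on the arrays, and they hold 12 of the 35077 probes with a gene symbol. RNA came from PC3 and DU145, both established human prostate cancer cell lines. In each line, cells that carried a luciferase shRNA as control (PC3-shC, DU145-shC) were set against cells that carried an shRNA against ESS2 (PC3-shESS2, DU145-shESS2), and each of these 4 conditions was measured on 1 one-colour array. ESS2 is a nuclear protein described as a transcriptional coregulator, and the study asked what its loss does to gene expression in prostate cancer cells. The methods describe PC3 cells that took up an shRNA plasmid and were selected with puromycin, while the labels call all 4 samples transduced, and whether a culture is a single clone is not given in the sources used here.

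Androgens switch on a secretory programme in luminal prostate cells. FOXA1 opens chromatin for this response as a pioneer factor, and TMPRSS2, KLK2 and KLK3 are among the best known androgen target genes. FOLH1 (the antigen PSMA), STEAP1 and STEAP2 are surface proteins of prostate cells that are used as tumour antigens, and SPOP is the substrate adaptor of a CUL3 ubiquitin ligase that is often mutated in prostate cancer. PC3 and DU145 are used as models of androgen-independent disease.

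Of the 8 genes, STEAP2, STEAP1 and TMPRSS2 were more than 2-fold lower in PC3-shESS2 than in PC3-shC cells, by 3.60-, 2.89- and 2.67-fold. The same 3 genes were lower in DU145-shESS2 than in DU145-shC cells, by 1.31-fold, 1.57-fold and at least 1.91-fold. FOXA1 was 1.40-fold lower in PC3-shESS2 cells and nearly level in DU145 cells, and KLK2, close to background, was lower in both lines. SPOP was 1.17-fold higher in PC3-shESS2 cells. KLK3 (the antigen PSA) and FOLH1 were not well above background on any array, so neither has a ratio.

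The share of spots well above background, Agilent's call that a spot is clearly brighter than its surroundings, was between 50.8 and 52.6% on the 4 arrays. ESS2 itself gave a processed signal of 133 in PC3-shC, 53.6 in PC3-shESS2, 85.7 in DU145-shC and 17.3 in DU145-shESS2 cells, which is 2.74-fold lower after knockdown in PC3 and 5.09-fold lower in DU145. CTNNA1, which PC3 cells are known to lack, lay at background level on both PC3 arrays and read 4320 in DU145-shC cells. The lowest signal called well above background lay between 8.15 and 9.02 on the 4 arrays. Each line was hybridised on a slide of its own, so the line and the slide cannot be told apart. Scaling matters most between the lines: the median log2 ratio of PC3-shC over DU145-shC over all genes was 0.12 when arrays were scaled to their 75th percentile, 0.58 when scaled to the median and -0.33 in the authors' scaled values. The share of genes past 2-fold that were higher in PC3-shC was accordingly 52.6, 72.1 and 31.7%. For the PC3 knockdown 649 genes were past 2-fold lower and 650 higher, and with scaling to the median the share that was higher was 38.9%, with the authors' scaled values 59.7%.

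HOXB13, a homeobox factor of the prostate lineage, gave 4400 in PC3-shC and 2860 in PC3-shESS2 cells and was not well above background in DU145 cells. HOXB13 was thus read clearly in PC3 cells only. Among luminal cell markers, 11 of 13 were well above background in both PC3 conditions and 8 of 13 in both DU145 conditions.

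**Figure D1:**
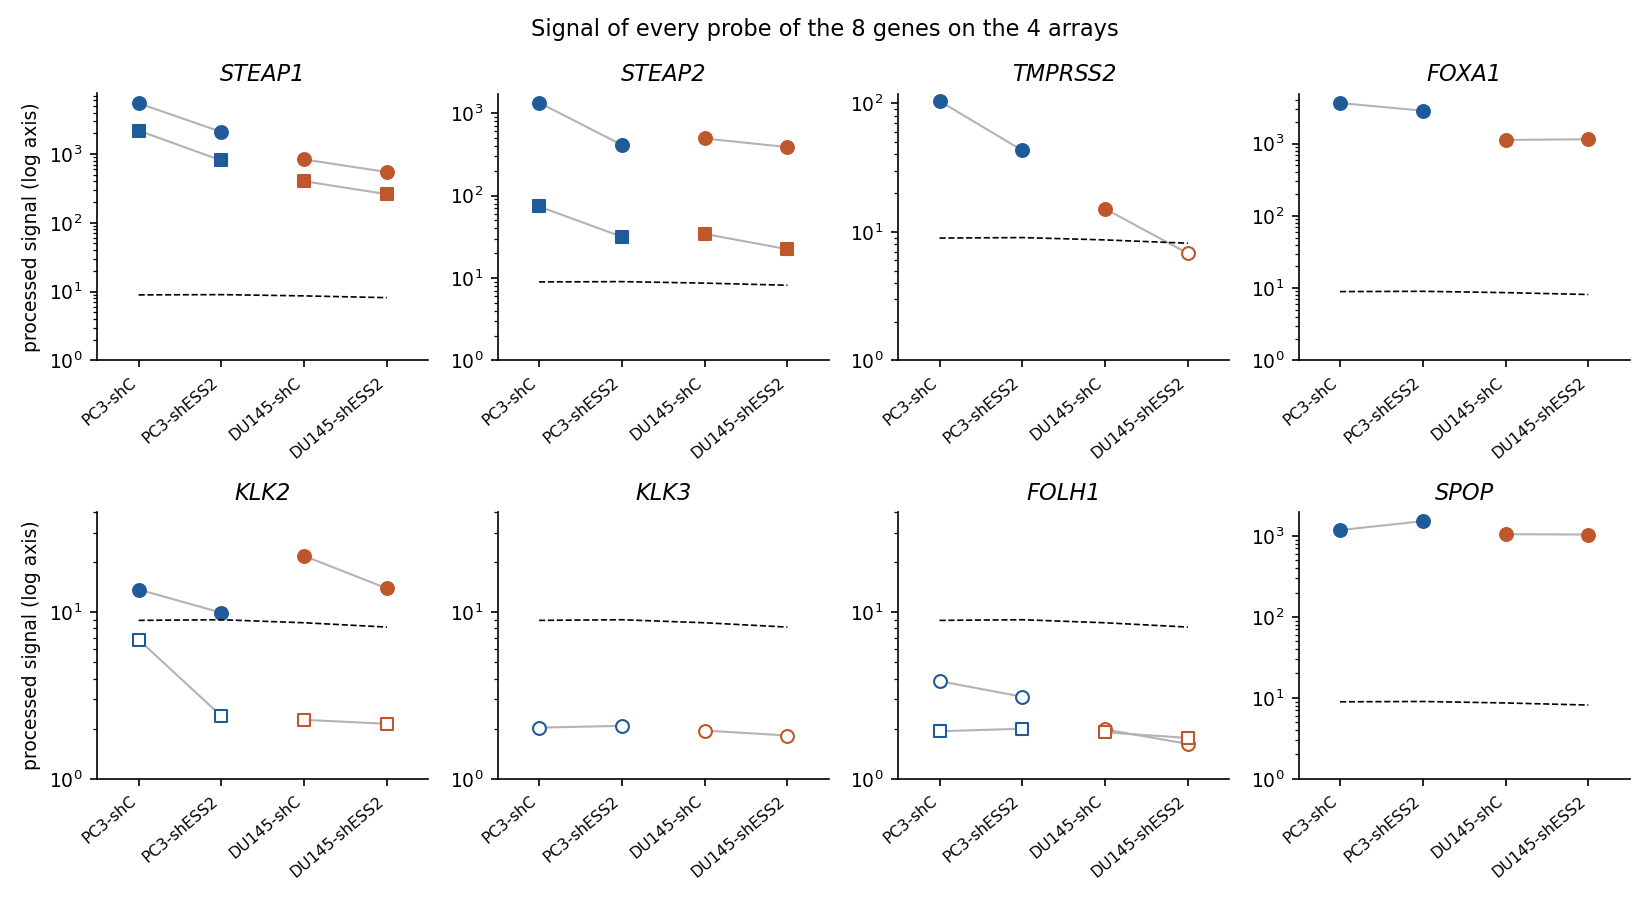
Processed signal (log axis) of each of the 12 probes on the 4 arrays, 1 panel per gene, with PC3 in blue and DU145 in orange. Filled symbols are well above background and open symbols are not, squares mark the second probe of a gene, grey lines join control to knockdown, and the dashed line is the lowest signal called well above background on each array. STEAP1 runs from 5470 in PC3-shC to 546 in DU145-shESS2 cells, while KLK3 stays at or below 2.08 throughout.

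Values are given below as the processed signal on each array. Ratios are log2 values after each array was scaled to its 75th percentile, and the error beside each is the SD that a ratio of single spots has between repeated spots of probes of like brightness. This SD covers the spots only, not the cells, the RNA or the hybridization, and with 1 array per condition no test was possible within a line.

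TMPRSS2 encodes a transmembrane serine protease, and its androgen-driven promoter is the one fused to ERG in many prostate tumours. Its probe gave 104 in PC3-shC, 43.0 in PC3-shESS2, 15.1 in DU145-shC and 6.79 in DU145-shESS2 cells. PC3-shC was the highest array, both PC3 arrays lay above both DU145 arrays, and the last array was not well above background. The log2 ratio of knockdown over control was -1.42 ± 0.11 in PC3. In DU145 it was -0.93 or lower, a bound set by the lowest signal called well above background. The plain signals give -1.19 there, so TMPRSS2 passes 2-fold in DU145 only if the dim spot is read at its own value. With a normexp background correction, which adds an offset of 50 to every spot and pulls dim values together, the PC3 ratio was -0.75, no longer past 2-fold, and the DU145 ratio was -0.12.

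FOXA1 is the only one of the 8 whose probe is printed 10 times on each array, which gives an error of its own. The mean signal was 3638 ± 142 in PC3-shC, 2860 ± 137 in PC3-shESS2, 1124 ± 46.2 in DU145-shC and 1149 ± 59.7 in DU145-shESS2 cells (SD over 10 spots). The 10 spots of PC3-shC lay between 3420 and 3980 and those of PC3-shESS2 between 2660 and 3130, so they did not overlap, whereas the spots of the DU145 arrays did. After scaling, the log2 ratio was -0.49 ± 0.06 in PC3 and -0.01 ± 0.05 in DU145 (SD over 10 spots). The PC3 difference exceeded the spread between spots and the DU145 difference did not. Neither value says how FOXA1 would vary between cultures.

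**Figure D2:**
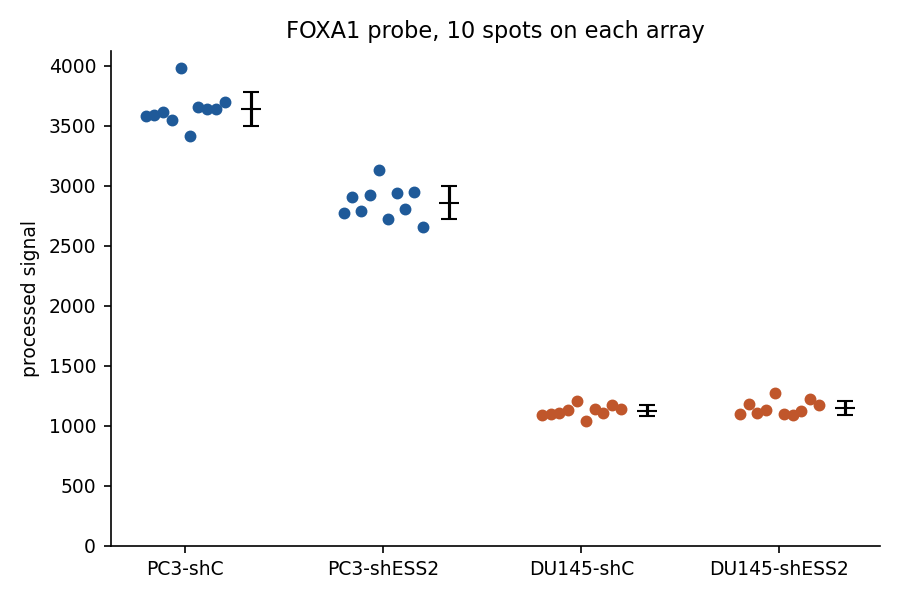
Processed signal of the 10 spots of the FOXA1 probe on each array (points), with the mean and the SD over spots (black). The PC3-shESS2 spots, between 2660 and 3130, sit below all PC3-shC spots, and the spots of the DU145 arrays overlap.

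STEAP1 and STEAP2 are neighbours on the long arm of chromosome 7 and encode six-transmembrane proteins of the metalloreductase family, of which STEAP2 reduces iron and copper. Windows were held for 6 of the 8 genes. As both STEAP genes were past 2-fold lower in PC3-shESS2 cells, the bases before their start sites are shown (RefSeq, GRCh38.p14, plus strand, 250 bases that end just before the start). Capitals mark exact matches to the GC box GGGCGG on either strand. The STEAP1 window is chr7:90154219-90154468 and the STEAP2 window, before the first of its 2 listed starts, is chr7:90211490-90211739.
STEAP1: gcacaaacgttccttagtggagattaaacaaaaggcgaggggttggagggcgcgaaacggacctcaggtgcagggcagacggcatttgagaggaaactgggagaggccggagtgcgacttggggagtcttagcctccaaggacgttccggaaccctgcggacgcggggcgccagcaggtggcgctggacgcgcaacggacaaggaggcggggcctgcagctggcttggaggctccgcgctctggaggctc
STEAP2: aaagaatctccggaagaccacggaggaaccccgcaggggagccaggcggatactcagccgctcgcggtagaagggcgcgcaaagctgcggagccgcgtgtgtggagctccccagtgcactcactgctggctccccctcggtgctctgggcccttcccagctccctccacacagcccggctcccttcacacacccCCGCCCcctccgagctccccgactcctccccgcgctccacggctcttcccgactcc
The starts lie 57271 bases apart. STEAP2 holds 1 GC box in this window and STEAP1 none, and 42.6% of the 35116 windows of the same length in the table hold at least 1. Both windows are rich in GC, at 64.4 and 69.6%, and each holds 21 CpG pairs, but aligned end to end they share only 46.9% of positions. Neither of these windows holds the forkhead motif TGTTTAC on either strand, but the window before the second STEAP2 start (chr7:90213570-90213819, not shown, 32.8% GC) holds 1 match, at position -66 from that start. The motif is found in 2.98% of all windows.

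The brighter STEAP1 probe gave 5470 in PC3-shC, 2090 in PC3-shESS2, 832 in DU145-shC and 546 in DU145-shESS2 cells. The second probe gave 2190, 804, 402 and 260 on the same arrays. Both probes put the 4 arrays in the same order, with each step larger than 2 times the SD between spots. The log2 ratio after knockdown was -1.53 ± 0.08 and -1.59 ± 0.09 in PC3 and -0.65 ± 0.09 and -0.67 ± 0.10 in DU145. The probes therefore differed by less than their spread between spots in either line.

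STEAP2 was measured by a probe for the transcript NM_152999 and by one for NM_001244944. The first gave 1340 in PC3-shC, 411 in PC3-shESS2, 492 in DU145-shC and 387 in DU145-shESS2 cells, and the second 73.6, 31.6, 34.2 and 22.3. After scaling, PC3-shC was the highest array by both probes, and PC3-shESS2 was the lowest by the first probe and level with DU145-shESS2 by the second. The log2 ratio was -1.85 ± 0.09 and -1.36 ± 0.12 in PC3 and -0.39 ± 0.09 and -0.66 ± 0.17 in DU145. Both probes were lower in both lines and past 2-fold in PC3, but the gap between the lines was wider by the first probe.

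The other STEAP genes were a list fixed with the members. STEAP1B, a near copy of STEAP1 on the other arm of the same chromosome, gave 5070, 2010, 1050 and 712, with log2 ratios of -1.48 in PC3 and -0.60 in DU145. Its values followed those of STEAP1 on every array, and as no probe sequence was read, STEAP1 RNA binding to the STEAP1B probe or the reverse was not tested. STEAP4, a metalloreductase gene upstream of STEAP1 and itself a known androgen target, gave 409 in PC3-shC and 186 in PC3-shESS2 cells (log2 ratio -1.28) and was not well above background in DU145 cells. STEAP3, the reductase of the transferrin cycle, gave 807, 796, 604 and 965, with log2 ratios of -0.16 in PC3 and 0.64 in DU145. Its second probe gave 0.43 and 0.37, so the direction in PC3 is not settled. Of the relatives on chromosome 7, STEAP4 was past 2-fold lower in PC3, and the STEAP1B value cannot be taken as separate from that of STEAP1. STEAP3, which lies elsewhere, was not past 2-fold, and a part of the position was not tested.

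Among the protein-coding genes around the STEAP locus, picked by position after the values of STEAP1 and STEAP2 were known, ADAM22 and SRI on the STEAP4 side had log2 ratios of -0.97 and -0.72 in PC3 and 0.20 and 0.15 in DU145. On the STEAP2 side, GTPBP10 was at -0.14 and 0.14 and CLDN12 at 0.33 and 0.34. ZNF804B, TEX47 and CFAP69, which lie next to the 3 STEAP genes, were not well above background on any array. In PC3, then, the 3 STEAP genes were past 2-fold and ADAM22 was short of it by less than the shift that scaling to the median brings.

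**Figure D3:**
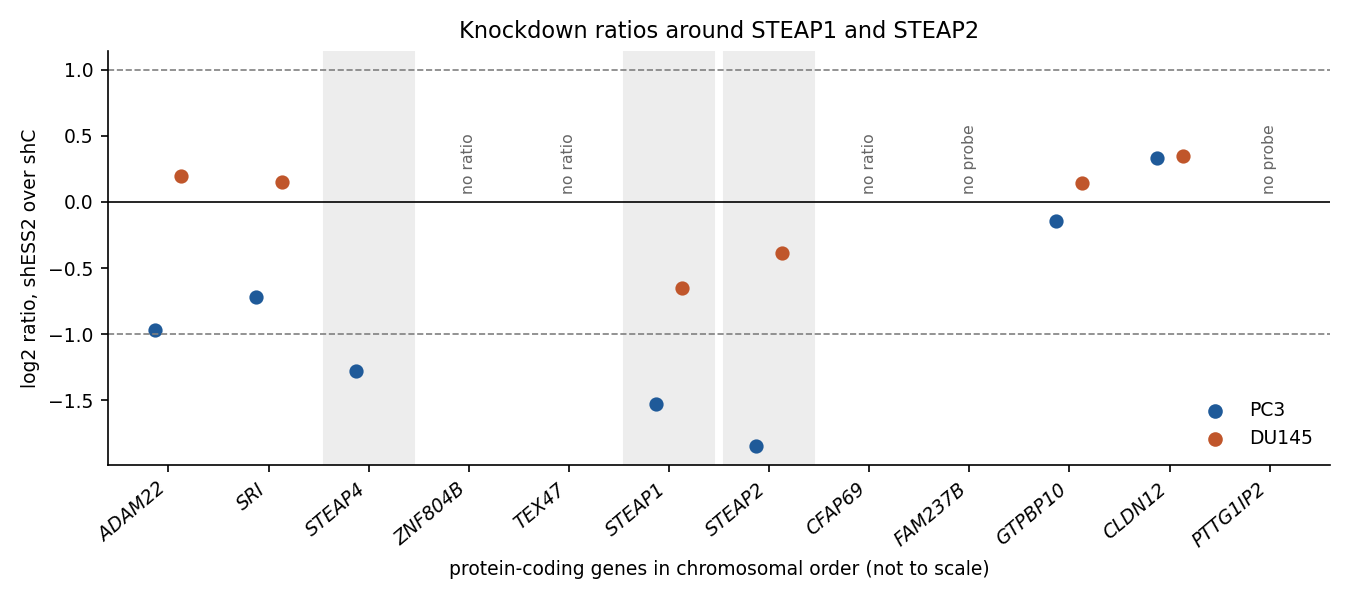
Log2 ratio of shESS2 over shC for the protein-coding genes around STEAP1 and STEAP2 in chromosomal order (spacing not to scale), PC3 in blue and DU145 in orange, with 2-fold as dashed lines and the STEAP genes shaded. In PC3 STEAP4, STEAP1 and STEAP2 lie between -1.28 and -1.85, below the dashed line, and CLDN12 lies at 0.33.

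KLK2 and KLK3 are adjacent kallikrein genes on chromosome 19 whose promoters carry a classical androgen response element. The element is shown with 20 bases on each side because one of the pair was measurable here and the other not (RefSeq, GRCh38.p14, plus strand). Capitals mark the 15 bases that best match the palindrome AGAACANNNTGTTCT. The stretches shown, flanks included, are for KLK2 chr19:50873243-50873297 and for KLK3 chr19:50854725-50854779.
KLK2: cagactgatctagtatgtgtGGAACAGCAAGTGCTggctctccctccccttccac
KLK3: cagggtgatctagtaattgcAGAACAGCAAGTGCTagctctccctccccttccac
The KLK2 element, which begins 176 bases before the start, matches 9 of the 12 fixed letters, and 9.17% of all windows hold a run with at least as many. The KLK3 element, 170 bases before the start, matches 10, and 1.18% of windows hold a run with at least as many. Over 250 bases before their starts the genes share 79.2% of aligned positions. The STEAP windows shown above reach 6 matches in STEAP1 and 7 in STEAP2, and the window before the second STEAP2 start reaches 9, as many as KLK2. A match is a description of the letters, not a sign that a factor bound there.

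The KLK2 probe for NM_005551 gave 13.7 in PC3-shC, 9.94 in PC3-shESS2, 21.8 in DU145-shC and 13.9 in DU145-shESS2 cells, all called well above background but close to the lowest signal so called. By this probe, both DU145 arrays lay above both PC3 arrays after scaling. The log2 ratio after knockdown was -0.60 in PC3 and -0.69 in DU145, alike in direction and below 2-fold. The SD between spots of these ratios, 0.12 and 0.17, had to be taken mostly from repeated probes that were brighter. The second KLK2 probe, for NM_001002231, read 6.85, 2.38, 2.26 and 2.14 and was not well above background on any array, so the PC3 ratio of -1.13 obtained by averaging both probes rests in part on background. With normexp the KLK2 log2 ratio was smaller, at -0.16 in PC3 and -0.20 in DU145.

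The KLK3 probe gave 2.03, 2.08, 1.95 and 1.82 in PC3-shC, PC3-shESS2, DU145-shC and DU145-shESS2 cells. All were far below the lowest signal called well above background, and no fold is given. FOLH1, whose product is the target of PSMA imaging and radioligands, was read by 2 probes that gave 3.86, 3.11, 1.98 and 1.62, and 1.93, 2.0, 1.90 and 1.76. None of these 8 readings was called well above background. Of its relatives, NAALAD2 and NAALADL1 were not well above background on any array either, and NAALADL2 gave 59.1, 45.4, 34.1 and 31.5, with log2 ratios of -0.52 in PC3 and -0.15 in DU145.

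SPOP gave 1180 in PC3-shC, 1520 in PC3-shESS2, 1050 in DU145-shC and 1040 in DU145-shESS2 cells. After scaling the log2 ratio was 0.22 ± 0.08 in PC3 and -0.05 ± 0.08 in DU145, and SPOP is the one member with a higher level after knockdown in PC3. The scaled levels of all 4 arrays followed each other within 2 times the SD between spots at each step. Of 20 comparable genes of its ligase and its substrates, 0 were past 2-fold lower and 1 higher in PC3, beside 3.87% and 3.88% of all genes. In DU145 0 of 19 were past 2-fold, beside 2.47% of all genes lower and 2.36% higher. The one was GLI2, a Hedgehog transcription factor, at 36.9 in PC3-shC and 118 in PC3-shESS2 cells (log2 ratio 1.54) and 0.01 in DU145. CUL3, the scaffold of the ligase, was at -0.08 and -0.06.

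Counted together, 3 of the 6 comparable members were past 2-fold lower in PC3 (3.87% of the 16764 genes compared) and 0 past 2-fold higher (3.88% of genes). With normexp 2 members were past 2-fold lower in PC3, and with the mean of probes 4. In DU145, 0 of 6 were past 2-fold in either direction, where 2.47% of 16842 genes were lower and 2.36% higher. The median log2 ratio of the 6 was -1.01 in PC3 and -0.52 in DU145, beside -0.06 and -0.02 over all genes compared. These medians hold without normexp, which made the ratios of TMPRSS2, STEAP1, STEAP2 and KLK2 smaller in both lines. In PC3, 5 of the 6 had a ratio below 0, as 55.7% of all genes did, and in DU145 all 6, beside 52.8%. The DU145 count includes FOXA1 at -0.01, which turns to 0.02 with scaling to the median, 0.0035 with normexp and 0.01 with the authors' scaled values, leaving 5. The 6 were chosen by name with earlier results of these data known, and KLK3 and FOLH1 are left out of these counts because they could not be compared.

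**Figure D4:**
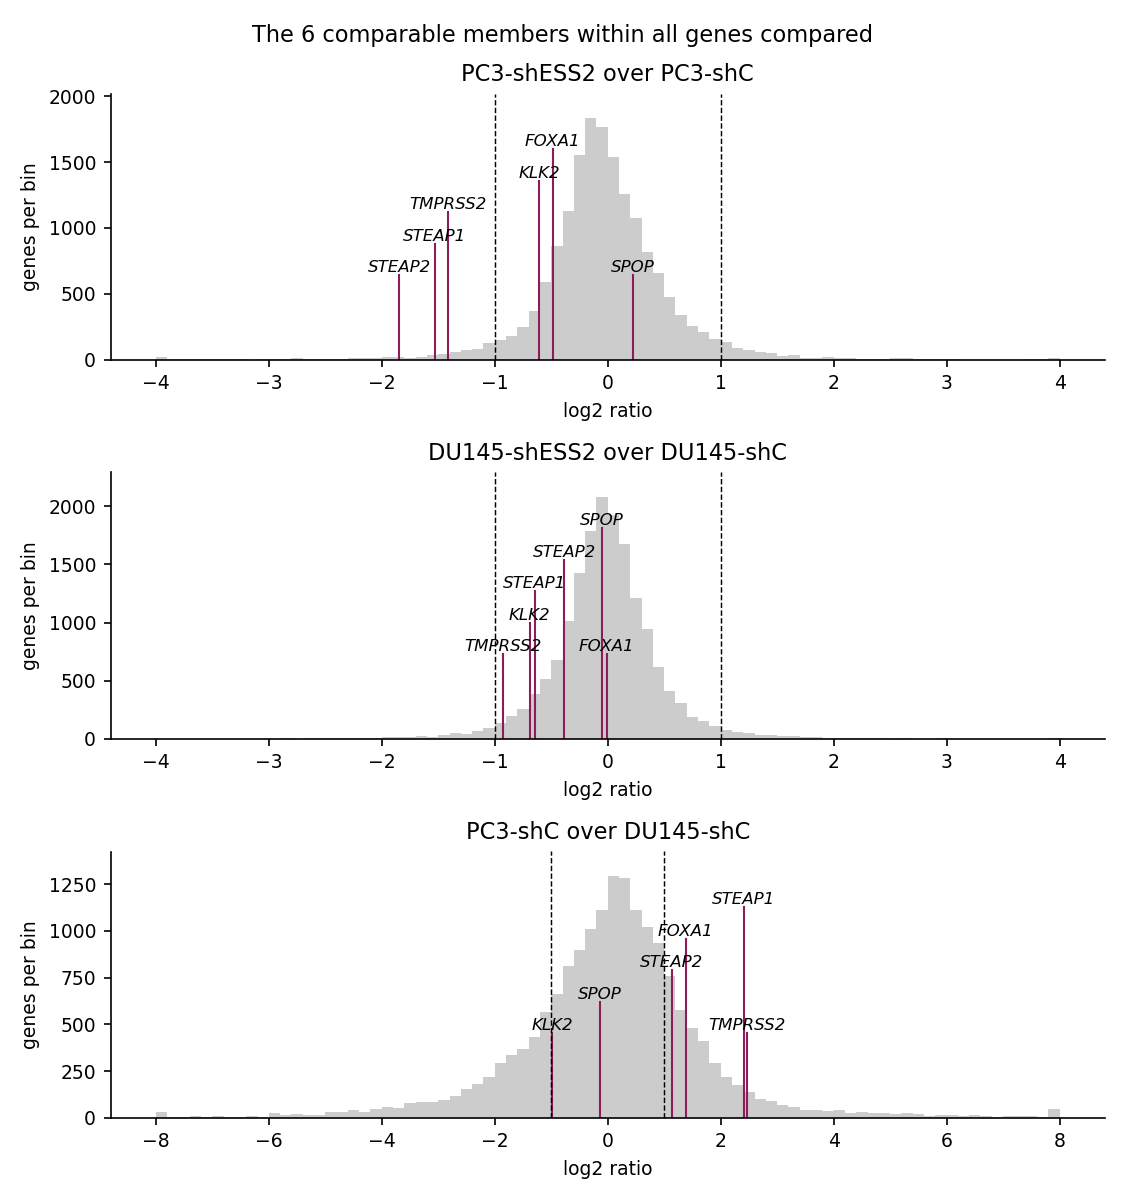
Number of genes per log2 ratio bin (grey) for the knockdown in PC3, the knockdown in DU145 and PC3-shC over DU145-shC, with the 6 comparable members as vertical lines whose heights carry no value, and dashed lines at 2-fold. Values beyond the axis are drawn in the outermost bins. STEAP2, STEAP1 and TMPRSS2 lie at -1.85, -1.53 and -1.42 in PC3, and TMPRSS2 and STEAP1 lie at 2.47 and 2.41 between the lines.

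The knockdown effect shared by the lines was tested with limma on all 4 arrays, which were fitted by line and by shRNA and left 1 degree of freedom for the error. With 1 array per condition, the error of this fit is a gene's gap between the line ratios, pooled partly over all genes. Its p-values thus hold no spread between cultures of a condition, and the SE is wider where the lines differ more, as for STEAP2. No gene of 17126 passed an adjusted p of 0.05 (0% called), and 1047 had an unadjusted p under 0.05. Among the 6 members tested, the shared log2 effect was -1.17 ± 0.22 for TMPRSS2, -1.12 ± 0.41 for STEAP2, -1.09 ± 0.29 for STEAP1 and -0.65 ± 0.18 for KLK2 (SE). For TMPRSS2 the DU145-shESS2 value in this fit was set to the lowest signal called well above background. FOXA1 and SPOP came to -0.25 ± 0.22 and 0.09 ± 0.19. With normexp the shared effect was -0.44 for TMPRSS2 and -0.18 for KLK2. TMPRSS2, STEAP1 and KLK2 were among the genes with an unadjusted p under 0.05, and the adjusted p of limma was 0.75 for TMPRSS2, STEAP2, STEAP1 and KLK2. The members with a lower level in both lines therefore did not pass the test across lines, in a design that called no gene at all.

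**Figure D5:**
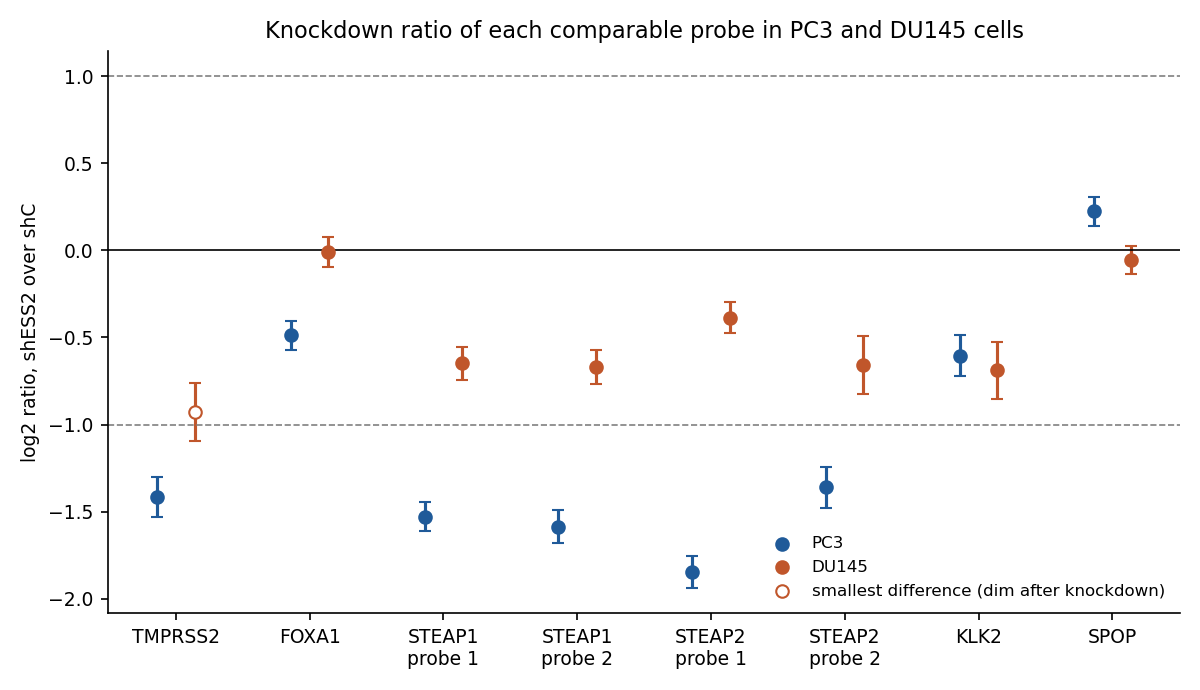
Log2 ratio of shESS2 over shC for each probe that could be compared, PC3 in blue and DU145 in orange, with bars of 1 SD of a ratio between single spots and dashed lines at 2-fold. The open symbol for TMPRSS2 in DU145 is the smallest difference the detection limit allows, -0.93. Both probes of STEAP1 and of STEAP2 lie below -1.3 in PC3 and above -0.7 in DU145.

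The ratios of PC3 and DU145 could be set side by side but not tested against each other, since no residual degree of freedom is left. The PC3 log2 ratio minus that of DU145 was -1.46 for STEAP2, -0.88 for STEAP1, -0.48 for FOXA1, 0.28 for SPOP and 0.09 for KLK2. For the STEAP genes and FOXA1 this gap was several times the spread between spots, and for KLK2 it was within it. The STEAP2 gap is that of its first probe, and the second, at -1.36 in PC3 and -0.66 in DU145, put the lines closer together. For TMPRSS2 the gap was -0.49 at the bound and smaller with the plain signal of DU145-shESS2. ESS2 itself had the lower log2 ratio in DU145 (-2.35, beside -1.45 in PC3), while FOXA1, STEAP1 and STEAP2 had the lower ratio in PC3.

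At baseline, TMPRSS2, STEAP1, FOXA1 and STEAP2 were higher in PC3-shC than in DU145-shC cells, by 5.55-, 5.30-, 2.61- and 2.20-fold. That is 4 of 6 members past 2-fold higher, beside 22.1% of the 17475 genes compared, and 0 of 6 past 2-fold lower, beside 19.9%. KLK2 was lower in PC3-shC at a log2 ratio of -0.98, and the mean of its probes turns this to 0.15. SPOP was at -0.14, but at 0.31 with scaling to the median and -0.60 in the authors' scaled values, so its direction between the lines is not settled. With quantile normalization or the authors' scaled values, 2 members, TMPRSS2 and STEAP1, stayed past 2-fold higher. With normexp TMPRSS2 was at 0.94, and with the mean of its probes STEAP2 was at 0.96, which left 3 members past 2-fold higher under each. With the authors' values KLK2 was also past 2-fold lower, at -1.43.

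In the knockdown cells the lines lay closer for the STEAP genes. STEAP1 was 2.88-fold and TMPRSS2 at least 3.97-fold higher in PC3-shESS2 than in DU145-shESS2 cells, 2 of 6 members past 2-fold higher beside 22.2% of genes. STEAP2, at a log2 ratio of 1.13 between the control cells, was at -0.32 between the knockdown cells, and its second probe went from 0.79 to 0.09. FOXA1 went from 1.38 to 0.90. These baselines share arrays with the knockdown ratios, so they restate the same 4 values per gene.

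Taking both shRNAs together, limma put 8958 of 17126 genes (52.3%) at an adjusted p under 0.05 between the lines, and 4 of the 6 members tested were among them. TMPRSS2 was higher in PC3 by a log2 effect of 2.23 (adjusted p = 0.0052), STEAP1 by 1.97 (adjusted p = 0.011) and FOXA1 by 1.14 (adjusted p = 0.019). KLK2 was lower by 0.94 on the log2 scale, an effect of -0.94 (adjusted p = 0.020). STEAP2 and SPOP, with adjusted p of 0.45 and 0.99, did not pass. With so large a share of all genes called, 4 of 6 is near the background. KLK2 lost its call without a block, with scaling to the median, quantile normalization, normexp or the mean of its probes, FOXA1 with quantile normalization or the authors' values, and TMPRSS2 with normexp.

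Other genes of the pathway came from lists set beside the members. Over all genes compared, 3.87% were past 2-fold lower and 3.88% higher in PC3, and 2.47% and 2.36% in DU145. These shares stand beside each knockdown count of a list from here on. Of 26 comparable androgen targets other than the members, 3 were past 2-fold lower and 1 higher in PC3, with a median log2 ratio of -0.24, and in DU145 0 of 21 were past 2-fold lower and 1 past 2-fold higher, with a median of 0.08. The 3 were AZGP1, a secreted zinc-binding glycoprotein (53.3 in PC3-shC, 9.91 in PC3-shESS2 cells, log2 ratio -2.57), ELL2, an elongation factor (1140 and 370, -1.76), and STEAP4. ACP3, prostatic acid phosphatase, was higher, at 9.15 and 23.3 (1.21). In DU145 the one was NDRG1, a stress-responsive gene, at 2680 in DU145-shC and 7260 in DU145-shESS2 cells (1.40). ELL2 was also lower in DU145, at -0.76. The PC3-shC signal of ACP3 was barely over the lowest called well above background on that array, 8.94, and most of the list was not past 2-fold in either line.

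Among pioneer factors and coregulators, 0 of 21 comparable genes were past 2-fold lower in PC3 and 1 higher, the SUMO ligase gene PIAS1 (61.0 and 166, log2 ratio 1.30), and in DU145 0 of 20 were past 2-fold. HOXB13 was at -0.76 in PC3. In the rest of the kallikrein family 7 of 13 genes were not well above background on any array, as KLK3 was. In PC3 0 of the 5 comparable kallikreins were past 2-fold, and in DU145 1 of 4 was past 2-fold lower, KLK9, with DU145-shESS2 not well above background. Between the control cells 3 of 6 comparable kallikreins, KLK1, KLK8 and KLK9, were past 2-fold lower in PC3-shC, beside 19.9% of all genes. Another 2, KLK5 and KLK6, were past 2-fold higher, beside 22.1%, and all were named after their values were seen. KLK1 and KLK8 were not well above background in PC3-shC, so their log2 ratios, -1.40 or lower and -2.52 or lower, are bounds. In DU145-shC cells KLK1 and KLK9 read only 19.0 and 23.0. KLK5 and KLK6 gave 184 and 1110 in PC3-shC cells and no signal well above background in DU145-shC cells. Of the other transmembrane serine proteases and their inhibitors, 10 of 20 were not well above background on any array. In PC3 0 of 10 comparable ones were past 2-fold lower and 2 past 2-fold higher, among them TMPRSS7 (18.7 and 44.0, 1.09), and in DU145 the inhibitor SPINT1 was past 2-fold lower (344 and 109, -1.70). TMPRSS2 was thus the one serine protease of this group past 2-fold lower in PC3, a call that normexp ended, at -0.75.

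Markers of cell states were read beside these results. The shares of all genes past 2-fold were again 3.87% lower and 3.88% higher in PC3, and 2.47% and 2.36% in DU145. Of 11 comparable luminal markers, 1 was past 2-fold lower (AZGP1) and 3 higher in PC3, among them DPP4 (1.30) and CD24 (1.24), and in DU145 CD24 alone was past 2-fold, at 1.27. Of 6 comparable basal markers 1 was past 2-fold in PC3, the keratin KRT14, from 128 in PC3-shC to 3980 in PC3-shESS2 cells (log2 ratio 4.82), while KRT5 and TP63 were not well above background on any array. Of 4 comparable neuroendocrine markers 3 were higher in PC3, of which ENO2 (1.20) was past 2-fold. The others of the 3, CHGA (2.12 and 16.7) and SCG2 (2.36 and 16.6), were too dim in PC3-shC to pass the background call. Their log2 ratios, 0.76 and 0.75, are thus lower bounds, and whether they pass 2-fold is not settled. Both were compared because of their PC3-shESS2 signal alone. That left little room for a lower ratio, so their direction carries little weight. SYP and NCAM1 were not well above background on any array. The summed signal of 13 luminal markers was 110417 in PC3-shC and 154441 in PC3-shESS2 cells, and 35613 and 48812 in the DU145 pair. In PC3, then, STEAP1, STEAP2 and TMPRSS2 were lower while the luminal sum was not. A part of the cells losing these genes and less RNA of them per cell cannot be told apart in such bulk RNA.

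Of 7 epithelial genes, all well above background on every array, 0 were past 2-fold in PC3, and in DU145 EPCAM (2120 and 357, log2 ratio -2.61) and CLDN7 (-1.93) were lower and CLDN4 (2.22) higher. Stromal and leukocyte genes served as a check for other cells. Their summed signals were 983 and 589, and 325 and 144, in PC3-shC and PC3-shESS2 cells, and 335 and 333, and 266 and 371, in DU145-shC and DU145-shESS2 cells. In PC3 PECAM1 (338 and 16.4, -4.51), CD14 (221 and 54.7, -2.16) and ACTA2 (-1.24) were past 2-fold lower in the same comparison as the STEAP genes and TMPRSS2, CD3D was lower with PC3-shESS2 not well above background, LUM was higher (2.16), and COL1A2, DCN, CD3E, MS4A1 and HBB were not well above background on any array. Their part in the result was not tested. GAPDH and ACTB were at 0.18 and 0.15 in PC3 and 0.04 and -0.04 in DU145.

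Genes whose pattern over the 4 arrays was most like a member's were looked for among the 14686 genes well above background on all of them, by the root mean square difference of centred log2 levels. For STEAP2 these were TNFAIP2, ADAM12 and SMAD1 (0.09, 0.09 and 0.14 log2), and for STEAP1 OR4D6, LOC100128361 and PSMB8 (0.06, 0.11 and 0.13). For TMPRSS2, with its dim value taken as read, they were HEY1, MYB and NEURL3 (0.10, 0.14 and 0.16). For FOXA1 they were MAGOHB, UCKL1 and MPV17L2 (0.02, 0.03 and 0.03), and for KLK2 ETV5, TSEN15 and LINC00317 (0.03, 0.04 and 0.05). No member was among the nearest of another, and 4 arrays are few points for such a match.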

How the data were processed

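RNA of PC3 and DU145 cells was hybridised to 4 one-colour (Cy3) Agilent arrays, 1 per condition, from 0.1 µg of total RNA per the labels. The authors deposited the intensity of each spot as Agilent Feature Extraction (12.1.0.3 for PC3, 12.0.3.1 for DU145) gave it, background-subtracted but not scaled between arrays, and a table of scaled intensity values that equal it times 1 constant per array. Array number limits the precision. Here log2 values minus each array's 75th percentile were used, without control or outlier spots. Symbols came from accessions matched to RefSeq GRCh38.p14 (35077 of 58196 probes). The brightest probe stood for a gene. Genes well above background on at least 1 array of a pair were compared, a dim value being raised to the lowest signal well above background. A call means past 2-fold, and limma 3.58.1 in R 4.3.3 tested across lines with Benjamini-Hochberg adjustment at 0.05, over genes that 2 or more arrays called well above background. The spread between spots is the median SD of the 20 nearest probes in signal among those spotted 10 times. Calculations were tested on simulated data. Named genes are the members, HOXB13, control genes, the STEAP and FOLH1 relatives, up to 3 genes per list, direction and line that were past 2-fold, and the 3 most alike in pattern. Other genes that are named, among them genes at background, CUL3, KLK1, KLK5, KLK6, KLK8 and the neighbours of STEAP1 and STEAP2, were chosen after their values were seen. Some genes of this rule and of the lists are not reported here by name. The members and lists were chosen with earlier results of these data known. Alternatives were normexp, quantile normalization, scaling to the median, outlier spots kept, the mean of probes, each probe on its own, the authors' scaled values, other filters on dim genes, and for limma no block, the slide as block and a filter asking for all 4 arrays.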

Additional observations from a re-analysis of the deposited data

Results flagged for a closer look

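Some genes had knockdown ratios of opposite sign in PC3 and DU145 while well above background on all 4 arrays. With 1 array per condition none of these differences was tested. SPOP is the only member among them, at log2 ratios of 0.22 in PC3 and -0.05 in DU145, a difference of 0.28. STEAP3, a relative of STEAP1 and STEAP2, was at -0.16 and 0.64, a difference of -0.80, and its second probe was above 0 in both lines. ENO2 differed by 1.45 (1.20 and -0.25), ACTA2 by -1.94 (-1.24 and 0.70) and CD14 by -2.79 (-2.16 and 0.63). The control gene ACTB differed by 0.19 (0.15 and -0.04).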

How the results depend on the processing

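Normexp moved the genes past 2-fold in PC3 to 323 lower and 248 higher, in DU145 to 77 and 139, and at baseline to 2021 lower. Scaling to the median gave 6132 genes higher at baseline and the authors' scaled values 2399, with 2 members higher and 1 lower. Quantile normalization also left 2 members higher. A filter on both arrays left 271 genes lower in DU145, having fewer genes to compare. The plain signal of dim spots put 1 member, TMPRSS2, past 2-fold in DU145. Members called between the lines fell to 2 with quantile normalization and with normexp. The line effect of SPOP turned to 0.39 with the median and 0.025 with normexp, and that of STEAP2 to -0.0074 with the authors' values, none past the threshold; for these the cause was not tested. Members past 2-fold lower in PC3 numbered 2 to 4, and limma called no gene for the knockdown under any alternative, with 23 to 1370 at an unadjusted p under 0.05. The slide as a block gave the same knockdown fit and could not be fitted beside the line. The limma fit paired control and knockdown within each line, and the lowest of these counts, 23, came without that pairing. No pairing by replicate number was possible, since each condition has 1 array. What limits these results is 1 array per condition and, for KLK2, KLK3, FOLH1 and TMPRSS2 in DU145, signal near background.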
